A study of Mus musculus with 16 samples.

Results

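Bub1b, Dsp and 2610035D17Rik are 3 of the 24421 genes listed in the deposited tables of this study of sleep disruption (SD) in mice. They were chosen by their levels in the libraries of the 2 genotypes, which differed between AcPb-/- and wild-type mice. The genotype differences below are therefore a description and carry no test. With all libraries they were largest in the mice kept awake, in part through an undisturbed AcPb-/- library described below. The SD effects were not called different between genotypes at any of the 3. The related genes, the neighbouring genes and the promoters, which were not chosen for a genotype difference, are compared beside them. The gene lists were set with earlier results of these data known, and related and neighbouring genes are read in the same libraries. The change with SD within a genotype is given too, and it is computed from libraries that the choice also used.

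Bub1b encodes BubR1, a protein of the mitotic checkpoint. It joins Bub3, Mad2 and Cdc20 in the complex that holds back the anaphase-promoting complex until every chromosome is attached to the spindle, and mice with little BubR1 are known to age early. Dsp encodes desmoplakin, the plakin that ties the desmosome to intermediate filaments in skin and heart. In the brain, Dsp RNA is known from granule neurons of the dentate gyrus and from the meninges. 2610035D17Rik is annotated as a long intergenic non-coding RNA, and no function is attributed to it here.

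RNA came from the somatosensory cortex of male mice aged 2 to 3 months, kept under a 12:12 h light-dark cycle. Wild-type mice were C57BL/6 per the labels and C57/BL6J per the methods. AcPb-/- mice lack AcPb, the neuron-specific form of the IL1 receptor accessory protein. Both lines came from an outside supplier, were bred on site for 5 to 7 generations, and homozygous offspring were genotyped from tail samples. The 4 groups, 3 libraries each, were undisturbed wild-type mice (CTL-WT), wild-type mice after SD (SD-WT), undisturbed AcPb-/- mice (CTL-AcPbKO) and AcPb-/- mice after SD (SD-AcPbKO). SD was gentle handling from zeitgeber time (ZT) 20 to ZT4, and all mice were collected at ZT4. The sources used here do not state whether the wild-type mice were littermates of the AcPb-/- mice.

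Reads on genes numbered 26504840 to 41615582 in the undisturbed libraries and 58770286 to 71857505 in the SD libraries. Values are normalized counts, that is, reads divided by a factor for the depth of the library, with the 12 libraries scaled together. Although every mouse is labelled male, 4 libraries held 25352 to 39358 reads of the female-specific RNA Xist and at most 2 reads of 4 Y-linked genes. They were CTL-WT replicates 2 and 3 and CTL-AcPbKO replicates 4 and 5, so no SD library was among them. AcPb is made from Il1rap, and counts of the whole gene cannot show the loss of 1 of its forms. Il1rap had 1476 to 1520 normalized counts in CTL-WT, 1515 to 1647 in CTL-AcPbKO, 1729 to 1920 in SD-WT and 1923 to 2062 in SD-AcPbKO, and so does not check the genotype labels.

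At all 3 genes 1 library went against its label. The library labelled CTL-AcPbKO replicate 3 lay within the wild-type range at Bub1b, Dsp and 2610035D17Rik, whereas the other 5 AcPb-/- libraries lay outside it. On the scale of log2(normalized count + 1), replicate 3 differed from the mean of the 6 wild-type libraries by 0.05 at Bub1b, 0.13 at Dsp and 0.10 at 2610035D17Rik. The other 5 AcPb-/- libraries differed from it by -2.85, 2.80 and -1.18. The genotype and SD comparisons that use this library are therefore also given without it. Why it stood apart was not tested.

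Bub1b was lower in AcPb-/- mice, by 7.42-fold over all libraries without replicate 3. Its normalized counts were 143, 168 and 143 in CTL-WT and 186, 135 and 158 in SD-WT. In AcPb-/- mice they were 160 in CTL-AcPbKO replicate 3, 19.4 and 25.5 in CTL-AcPbKO replicates 4 and 5, and 26.3, 15.1 and 18.4 in SD-AcPbKO. Behind these stood 113 to 276 reads per wild-type library and 11 to 34 reads in each AcPb-/- library other than replicate 3, which had 123. Apart from that library, the genotypes did not overlap, and the highest AcPb-/- value was far below the lowest wild-type value. After SD the mean was 160 ± 25.4 in wild-type and 19.9 ± 5.79 in AcPb-/- mice (± standard deviation, n = 3 each), 8.01-fold higher in wild-type. In undisturbed mice wild-type was 2.21-fold higher with all libraries and 6.74-fold higher without replicate 3. Over all libraries without replicate 3, AcPb-/- mice held 13.5% of the wild-type level.

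Dsp went the other way, from a trace in wild-type cortex to a low but measurable level in AcPb-/- cortex. Normalized counts were 19.0, 11.3 and 14.5 in CTL-WT and 8.09, 7.47 and 14.1 in SD-WT. They were 13.05 in CTL-AcPbKO replicate 3, 93.6 and 60.8 in replicates 4 and 5, and 61.2, 105 and 148 in SD-AcPbKO. Reads numbered 8 to 19 per wild-type library and 43 to 208 in the 5 AcPb-/- libraries, so the wild-type values in particular are set by few reads. The genotypes again overlapped through replicate 3 alone, and the AcPb-/- libraries spread more widely than they did at the other genes. After SD the means were 9.88 ± 3.65 in wild-type and 104 ± 43.2 in AcPb-/- mice (± standard deviation, n = 3 each), 10.6-fold higher in AcPb-/-. In undisturbed mice AcPb-/- was 3.74-fold higher with all libraries and 5.17-fold higher without replicate 3.

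2610035D17Rik was more abundant than the others and was lower in AcPb-/- mice, at 44.1% of the wild-type level over all libraries without replicate 3. Normalized counts were 665, 556 and 620 in CTL-WT and 594, 582 and 592 in SD-WT. They were 644 in CTL-AcPbKO replicate 3, 286 and 255 in replicates 4 and 5, and 236, 245 and 306 in SD-AcPbKO. Reads numbered 395 to 881 per wild-type library and 162 to 431 in the 5 AcPb-/- libraries, and the ranges of normalized counts lay well apart. After SD the means were 589 ± 6.41 in wild-type and 262 ± 37.9 in AcPb-/- mice (± standard deviation, n = 3 each), 2.25-fold higher in wild-type. Undisturbed, wild-type was 1.55-fold higher with replicate 3 and 2.27-fold higher without it. The plot of normalized counts by library shows the same arrangement 3 times, with 1 AcPb-/- library among the wild-type ones.

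**Figure D1:**
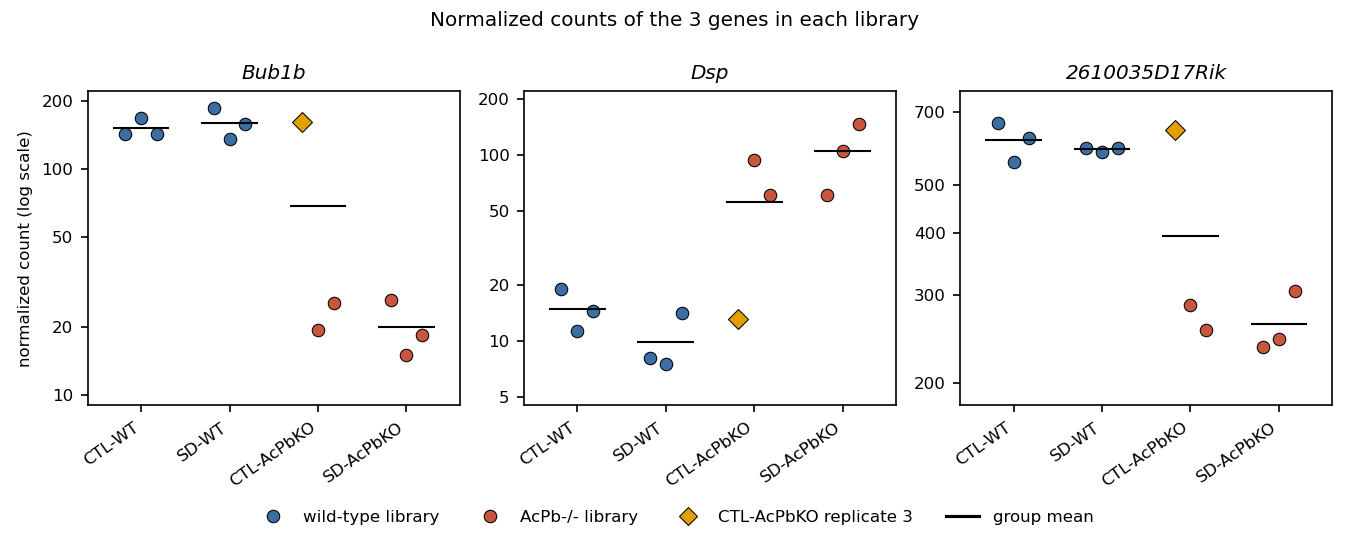
Normalized counts (log axis) of Bub1b, Dsp and 2610035D17Rik in each of the 12 libraries, by group, with the group mean as a line. CTL-AcPbKO replicate 3 (diamond, at 160, 13.05 and 644) lies among the wild-type libraries in each panel, and the other 5 AcPb-/- libraries lie apart from them.

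Per length the order of the genes changed with genotype. As RPKM (reads divided by exon length in kb and by the reads of the library), the 6 wild-type libraries averaged 5.98 ± 0.392 for 2610035D17Rik, 0.766 ± 0.0938 for Bub1b and 0.0271 ± 0.00973 for Dsp (± standard deviation, n = 6). In the 5 AcPb-/- libraries without replicate 3 they averaged 2.64 ± 0.312, 0.103 ± 0.0227 and 0.204 ± 0.0789 (± standard deviation, n = 5), so that Dsp stood above Bub1b. With replicate 3 included, Bub1b at 0.220 ± 0.288 and Dsp at 0.175 ± 0.101 (± standard deviation, n = 6) did not differ beyond their spread.

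The genotype differences can be set against the whole table. With limma, on log2(normalized count + 1) and a Benjamini-Hochberg adjusted p under 0.05, 3 of 20621 genes (0.0145%) were past the threshold after SD, and they are these 3, as the choice of the genes fixes. The fitted differences, AcPb-/- minus wild-type, were -2.98 (SE 0.235) for Bub1b, 3.27 (SE 0.353) for Dsp and -1.18 (SE 0.113) for 2610035D17Rik. In undisturbed mice they were -1.76, 1.46 and -0.76 with all libraries and -2.69, 2.26 and -1.18 without replicate 3. Among 16062 genes with a mean of at least 10 normalized counts, the wild-type and AcPb-/- libraries did not overlap at 1996 (12.4%) after SD, all 3 genes included. In undisturbed mice they did not overlap at 2587 (16.1%), none of the 3 included, and at 4864 (30.3%) without replicate 3, all 3 included. Over both conditions the shares were 0.629% with 12 libraries, without any of the 3, and 1.02% without replicate 3, with all 3.

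Replicate 3 did not resemble wild-type everywhere. In undisturbed mice 4 of 20273 genes (0.0197%) passed the threshold with all libraries, namely Erich5, Gabra2, Nnt and Tmem181b-ps, which are named after their values were seen. All 4 were higher in AcPb-/- mice, and since replicate 3 took part in that test, its position there is not independent of it. Gabra2, a GABA-A receptor subunit gene known for a low-expression allele in C57BL/6J mice, had 1819 to 2623 normalized counts in wild-type libraries, 3013 to 4525 in the 5 AcPb-/- libraries and 3753 in replicate 3. Nnt, a mitochondrial transhydrogenase gene known for a deletion in C57BL/6J mice, had 947 to 1082 in wild-type libraries, 928 to 1857 in the 5 and 1770 in replicate 3. At both genes replicate 3 thus lay in the AcPb-/- range. Nnt lies at chr13:119335448-119408997, on the same chromosome as Dsp. The methods give the wild-type mice as C57/BL6J, and the substrain behind the AcPb-/- line is not given in the sources used here. Without replicate 3, 168 genes (0.836%) passed the threshold in undisturbed mice.

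The 3 genes lie on 3 chromosomes. In GENCODE M21 on GRCm38, Bub1b (ENSMUSG00000040084) lies at chr2:118598211-118641591 on the plus strand, Dsp (ENSMUSG00000054889) at chr13:38151294-38198577 on the plus strand and 2610035D17Rik (ENSMUSG00000087259) at chr11:113043895-113201838 on the minus strand. Of all stretches of 100 bases of their transcripts, 0 in Bub1b and 2610035D17Rik occurred in another gene, and 4.14% in Dsp did, all in Gm10129. That gene lies on the opposite strand over the first exon of Dsp, is not listed in the tables, and the strand setting of the counting is not given in the sources used here. The Il1rap gene lies on chromosome 16.

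The promoters, 250 bases before the start of each gene on GRCm38.p6 from RefSeq, are shown because the genes moved together across libraries. Capitals mark in Bub1b and 2610035D17Rik the longest run of letters that both hold, CCAAT on either strand and TATAAA, and in Dsp every GGGCGG on either strand. The regions are chr2:118597961-118598210 (plus), chr11:113201839-113202088 (minus) and chr13:38151044-38151293 (plus).
Bub1b: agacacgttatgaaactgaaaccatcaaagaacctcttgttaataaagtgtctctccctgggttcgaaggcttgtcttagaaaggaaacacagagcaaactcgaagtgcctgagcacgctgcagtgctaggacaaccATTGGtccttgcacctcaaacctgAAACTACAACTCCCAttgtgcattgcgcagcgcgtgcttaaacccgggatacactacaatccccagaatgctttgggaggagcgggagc
2610035D17Rik: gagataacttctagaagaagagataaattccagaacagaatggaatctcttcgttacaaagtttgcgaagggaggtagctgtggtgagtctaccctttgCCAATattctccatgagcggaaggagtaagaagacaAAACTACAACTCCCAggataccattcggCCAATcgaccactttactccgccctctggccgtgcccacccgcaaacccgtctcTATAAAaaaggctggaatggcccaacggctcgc
Dsp: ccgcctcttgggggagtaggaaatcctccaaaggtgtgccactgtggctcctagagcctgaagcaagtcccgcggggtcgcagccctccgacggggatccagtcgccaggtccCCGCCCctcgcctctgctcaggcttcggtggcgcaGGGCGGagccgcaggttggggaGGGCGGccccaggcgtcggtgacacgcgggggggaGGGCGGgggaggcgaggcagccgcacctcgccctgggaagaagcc
The promoters of the 2 lower genes share AAACTACAACTCCCA, a run of 15 bases. It lies from -89 to -75 in Bub1b and from -115 to -101 in 2610035D17Rik, counted from the start. Over both strands and windows from 250 bases before to 50 after the start, 33 of 32851 promoters of RefSeq genes hold it. The longest runs that Dsp shares are of 9 bases with Bub1b and 10 with 2610035D17Rik. Bub1b has 1 CCAAT and 2610035D17Rik has 2, a motif in 37.4% of promoters, and 2610035D17Rik has TATAAA from -33 to -28, in 13.6% of promoters. The Dsp window is rich in G and C, 72.4% against 49.2% in Bub1b, 48.8% in 2610035D17Rik and a median of 52.4% over all promoters, and holds 4 GGGCGG, a motif found in 35.7%. These matches describe letters only, and no binding was measured.

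The genes that work with BubR1 were read beside it. Of 23 other mitotic checkpoint genes, all 23 were tested, and 0 were past the threshold between genotypes after SD or in undisturbed mice, with or without replicate 3 (limma; 3 and 1 at an unadjusted p under 0.05 with all libraries). Over all genes 0.0145% passed after SD, 0.0197% in undisturbed mice and 0.836% there without replicate 3, so that counts of 0 say nothing particular to this or the lists that follow. Their median log2 difference after SD was 0.06, against 0.00 over all genes. Zwint, a kinetochore gene, differed by 0.06 (SE 0.0864) and Bub3, the partner of BubR1, by -0.16 (SE 0.0657), and they were the most abundant of the list. Bub1, the nearest relative of Bub1b and outside the naming rule, averaged 6.42 normalized counts, with a difference of -0.50 (SE 0.298). Likewise 0 of 22 genes of the anaphase-promoting complex and its substrates passed the threshold in either condition, with or without replicate 3.

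Markers of dividing cells were measured because Bub1b is used in mitosis. Of 12 markers, 0 passed the threshold between genotypes in either condition, with or without replicate 3. Their summed normalized count was 3578 to 3712 in the wild-type libraries, 3350 to 3586 in the 5 AcPb-/- libraries and 3422 in replicate 3, a far smaller difference than that of Bub1b. Replicate 3 was thus at the level of the other AcPb-/- libraries for these markers, while its Bub1b was at the wild-type level.

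The partners of desmoplakin were read in the same way. Of 15 other desmosome genes 14 were tested after SD, and 0 passed the threshold in either condition, with or without replicate 3, against the same shares over all genes (0.0145%, 0.0197% and 0.836%). The median log2 difference after SD was 0.25, against 0.00 over all genes, and 7 of the 15 averaged under 10 normalized counts, with the desmoglein gene Dsg4 listed at 0 in all libraries. Pkp4, a plakophilin family gene, differed by 0.02 (SE 0.0707) and Jup, which encodes plakoglobin, by 0.05 (SE 0.0662). Of 12 other plakins and intermediate filament genes 0 passed either, with Dst at -0.03 (SE 0.0792) and Macf1 at -0.01 (SE 0.064), both cytoskeletal linkers of neurons and glia. The plot of related genes shows Bub1b and Dsp beyond every other gene of their lists. They were chosen for this difference and the others were not, so their place in the plot is no separate result.

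**Figure D2:**
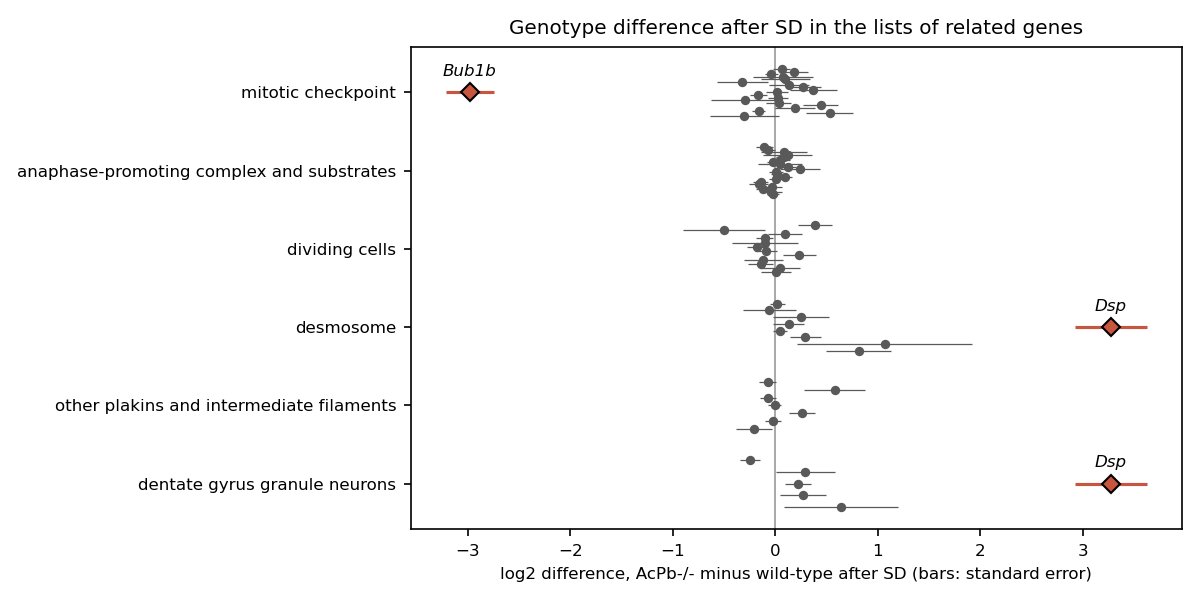
Log2 difference after SD, AcPb-/- minus wild-type, on log2(normalized count + 1), with its standard error, for genes of 6 lists with a mean of at least 10 normalized counts (grey) and for Bub1b at -2.98 and Dsp at 3.27 (diamonds). None of the other genes of the lists passed the threshold. Over all tested genes of a list, the median was 0.06 for the mitotic checkpoint, -0.01 for the anaphase-promoting complex and -0.09 for dividing cells. It was 0.25 for the desmosome, 0.19 for other plakins and intermediate filaments and 0.27 for dentate gyrus granule neurons.

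Cells known to carry Dsp were followed by their other markers. The summed normalized count of 5 further markers of dentate gyrus granule neurons was 1047 to 1545 in wild-type libraries and 1191 to 1451 in the 5 AcPb-/- libraries, so the ranges overlapped, and 0 of 5 passed the threshold between genotypes. That of 10 meningeal fibroblast markers was 6648 to 8667 in wild-type libraries, 8709 to 10810 in the 5 AcPb-/- libraries and 8323 in replicate 3. Replicate 3 thus lay in the wild-type range, as at Dsp. Within the 5 AcPb-/- libraries the sums did not follow Dsp. CTL-AcPbKO replicate 5 had the highest sum, 10810, and the lowest Dsp, 60.8, while SD-AcPbKO replicate 4 had 8869 and the highest Dsp, 148. No meningeal marker was at 0, and 0 of 10 passed the threshold with all libraries or without replicate 3. In bulk tissue, a change in the number of cells of a type and a change in RNA per cell cannot be told apart. The choroid plexus markers summed to 18090 in SD-AcPbKO replicate 4, against 255 to 575 in the other libraries, and that library had the highest Dsp. The next highest sum, 575, was in CTL-AcPbKO replicate 3, with Dsp at 13.05. CTL-AcPbKO replicate 4 had a sum of 270, with Dsp at 93.6. Without SD-AcPbKO replicate 4 the log2 difference of Dsp after SD was 2.98. The part of these cells in the level of Dsp was not tested.

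Markers of the cortex were present as the tissue label says. Excitatory neuron markers summed to 76656 to 103339 normalized counts and interneuron markers to 36371 to 42412 over all libraries. Over the 14 cell type marker lists, 0 of 80 genes tested passed the threshold between genotypes after SD or in undisturbed mice with all libraries (limma; 8 and 13 at an unadjusted p under 0.05). Without replicate 3, where 0.836% of all genes passed, 1 marker was higher and 4 were lower in undisturbed AcPb-/- mice. The excitatory marker Cux2 was the higher one, and the lower ones were 4 of 4 oligodendrocyte markers, Mbp, Mog and Mag among them, with a median log2 difference of -0.89 against 0.00 over all genes. The oligodendrocyte marker list summed to 76736 to 115031 in wild-type libraries, 46577 to 93600 in the 5 AcPb-/- libraries and 108362 in replicate 3. Their part in the values of the 3 genes was not tested.

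SD itself did not move the 3 genes past the threshold in wild-type mice, although it moved 5186 of 20417 genes (25.4%). The log2 change with SD, SD minus undisturbed, was 0.07 (SE 0.152, adjusted p = 0.775) for Bub1b, -0.57 (SE 0.332, adjusted p = 0.241) for Dsp and -0.06 (SE 0.0871, adjusted p = 0.684) for 2610035D17Rik. The groups overlapped at each of the 3, whereas 47.9% of genes with a mean of at least 10 did not overlap. The standard errors bound the change of 2610035D17Rik most tightly and that of Dsp least. With a term for libraries with Xist, in a joint limma analysis of the 12 libraries, the change was -0.82 (adjusted p = 0.33) for Bub1b. It was 0.0652 (adjusted p = 0.967) for Dsp and -0.53 (adjusted p = 0.107) for 2610035D17Rik, so that Bub1b and Dsp turned sign. The same Xist term served both genotypes, so CTL-AcPbKO replicates 3, 4 and 5 also entered these wild-type values. Within CTL-WT, Bub1b was 143 in replicate 1, without Xist reads, and 168 and 143 in replicates 2 and 3, with them.

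In AcPb-/- mice 5633 of 20574 genes (27.4%) changed with SD, and the 3 genes were not among them with limma on these groups alone. The changes were -1.11 (SE 0.689, adjusted p = 0.275) for Bub1b, 1.19 (SE 0.64, adjusted p = 0.209) for Dsp and -0.47 (SE 0.31, adjusted p = 0.312) for 2610035D17Rik. These sizes rested on replicate 3, an undisturbed library. The 3 genes overlapped between the groups with and without it, whereas 51.1% and 62.0% of genes did not. Without it, 26.1% of genes passed, and the changes were -0.18 (SE 0.329, adjusted p = 0.721), 0.38 (SE 0.358, adjusted p = 0.483) and -0.05 (SE 0.148, adjusted p = 0.824). DESeq2 on the recovered reads called the fall of Bub1b with replicate 3 (log2 change -1.79, adjusted p = 0.02) and not without it (-0.18, adjusted p = 0.839). With the Xist term and all libraries, Bub1b (-2.01, adjusted p = 0.0189) and 2610035D17Rik (-0.95, adjusted p = 0.00772) passed the threshold, and Dsp did not (1.83, adjusted p = 0.0562). The undisturbed AcPb-/- libraries with Xist reads were those other than replicate 3, so in that group Xist and replicate 3 cannot be told apart. Without replicate 3, every undisturbed AcPb-/- library held Xist reads and no SD-AcPbKO library did. SD and Xist therefore cannot be told apart in any change with SD in AcPb-/- mice given without replicate 3.

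The SD effects were compared between genotypes as the interaction over the 12 libraries, AcPb-/- minus wild-type. As the genes were chosen in the SD libraries, this comparison shares values with the choice. The difference was -1.19 (SE 0.796) for Bub1b, 1.76 (SE 0.806) for Dsp and -0.41 (SE 0.362) for 2610035D17Rik, each with an adjusted p = 0.986. Without replicate 3 it was -0.26 (SE 0.332, adjusted p = 0.947), 0.95 (SE 0.525, adjusted p = 0.876) and 0.00 (SE 0.163, adjusted p = 0.998). Over 20978 genes 0 passed with limma (839 at an unadjusted p under 0.05), 0 with edgeR and 1 with DESeq2. Without replicate 3, limma called 9 genes (0.043%), none of them these 3. The AcPb-/- side of that comparison cannot be told apart from Xist either.

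Some of the related genes changed with SD. Over the 4 lists of checkpoint, anaphase-promoting complex, desmosome and plakin genes, 6 rose and 7 fell of 69 tested in wild-type mice, where 25.4% of all genes passed. In AcPb-/- mice 6 rose and 8 fell of 71, where 27.4% of all genes passed, and 8 rose and 8 fell of 70 without replicate 3, where 26.1% did. These shares lie below those over all genes, so the counts are nothing particular to the lists. Of 23 checkpoint genes 4 passed in wild-type mice, with Zw10, Incenp and Mad2l1 higher by 0.30, 0.40 and 0.31 and Zwilch lower by 0.55. In AcPb-/- mice Zwilch fell by 0.52 with all libraries and by 0.55 without replicate 3. Zw10 rose by 0.23 with all libraries (adjusted p = 0.0428), a call lost without replicate 3 (0.21, adjusted p = 0.0852). Of 22 genes of the anaphase-promoting complex and its substrates, 1 rose and 5 fell in wild-type and 2 rose and 6 fell in AcPb-/- mice, the latter counts being equal without replicate 3. They included Fzr1, an activator of the complex that neurons use (-0.42 in wild-type and -0.50 in AcPb-/- mice), the catalytic subunit Anapc11 (-0.50 and -0.64), Anapc7 (-0.35 in both) and Anapc10 (0.48 and 0.59). Among 12 dividing-cell markers the transcription factor E2f1 alone passed, and fell by 0.43 in wild-type mice, by 0.48 in AcPb-/- mice and by 0.54 there without replicate 3. Of the desmosome genes, the plakophilin gene Pkp2 rose in wild-type mice (0.80) and Pkp1 in AcPb-/- mice (1.07), where without replicate 3 Jup, Pkp4, Pkp2 and Pkp1 rose. Of the plakins and filaments, Plec fell in both genotypes (-0.32 and -0.47), Vim rose in wild-type (0.25), and Dst and Macf1 rose in AcPb-/- mice (0.29 and 0.25). Without replicate 3 the values in AcPb-/- mice were -0.43 for Plec, 0.35 for Dst and 0.30 for Macf1, each past the threshold. In all the AcPb-/- values without replicate 3, SD cannot be told apart from the presence of Xist reads.

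Neighbouring genes were read for changes that extend beyond each gene. Within 500 kb of Bub1b, 19 genes had a mean of at least 10 normalized counts, and 0 of them differed between the genotypes, either past the threshold or by ranges that did not overlap. Its nearest coding neighbours are Pak6, a kinase gene 21.7 kb away, where the 5 AcPb-/- libraries differed from wild-type by 0.13 on the log2 scale, and Bmf, which encodes a BH3-only protein and differed by -0.33, against -2.85 for Bub1b. Within 500 kb of 2610035D17Rik, 9 genes were measured. Its nearest coding neighbours are Slc39a11, a zinc transporter gene 43.0 kb away (0.04), and on the other side Sox9, a transcription factor of astrocytes (0.04). Sstr2, a somatostatin receptor gene 418 kb away, was lower in undisturbed AcPb-/- mice without replicate 3 (-0.71, adjusted p = 0.0114) and differed by 0.44 after SD (adjusted p = 0.209).

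Near Dsp, other genes differed too. Of 9 measured genes within 500 kb, 2 did not overlap between the genotypes without replicate 3, against 1.02% of all genes with a mean of at least 10. Ssr1, a gene of the translocon at the endoplasmic reticulum, had 6588 to 7824 normalized counts in wild-type libraries, 8125 to 9732 in the 5 AcPb-/- libraries and 7261 in replicate 3. Rreb1, a zinc finger transcription factor gene, had 3017 to 4340, 4349 to 5609 and 3843. In both, replicate 3 lay in the wild-type range, as at Dsp. Without it, both were higher in undisturbed AcPb-/- mice, Ssr1 by 0.34 (adjusted p = 0.0282) and Rreb1 by 0.51 (adjusted p = 0.00645). With all libraries neither passed there, at 0.21 (adjusted p = 0.606) for Ssr1 and 0.44 (adjusted p = 0.17) for Rreb1. Nor did they pass after SD, at 0.30 (adjusted p = 0.38) and 0.46 (adjusted p = 0.203), all with limma. The nearest coding genes, Snrnp48 at 6.36 kb (0.08) and Riok1 on the other side (0.21), overlapped between genotypes. The plot of neighbours shows each of the 3 genes, chosen for a genotype difference, beside those around it, which were not so chosen.

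**Figure D3:**
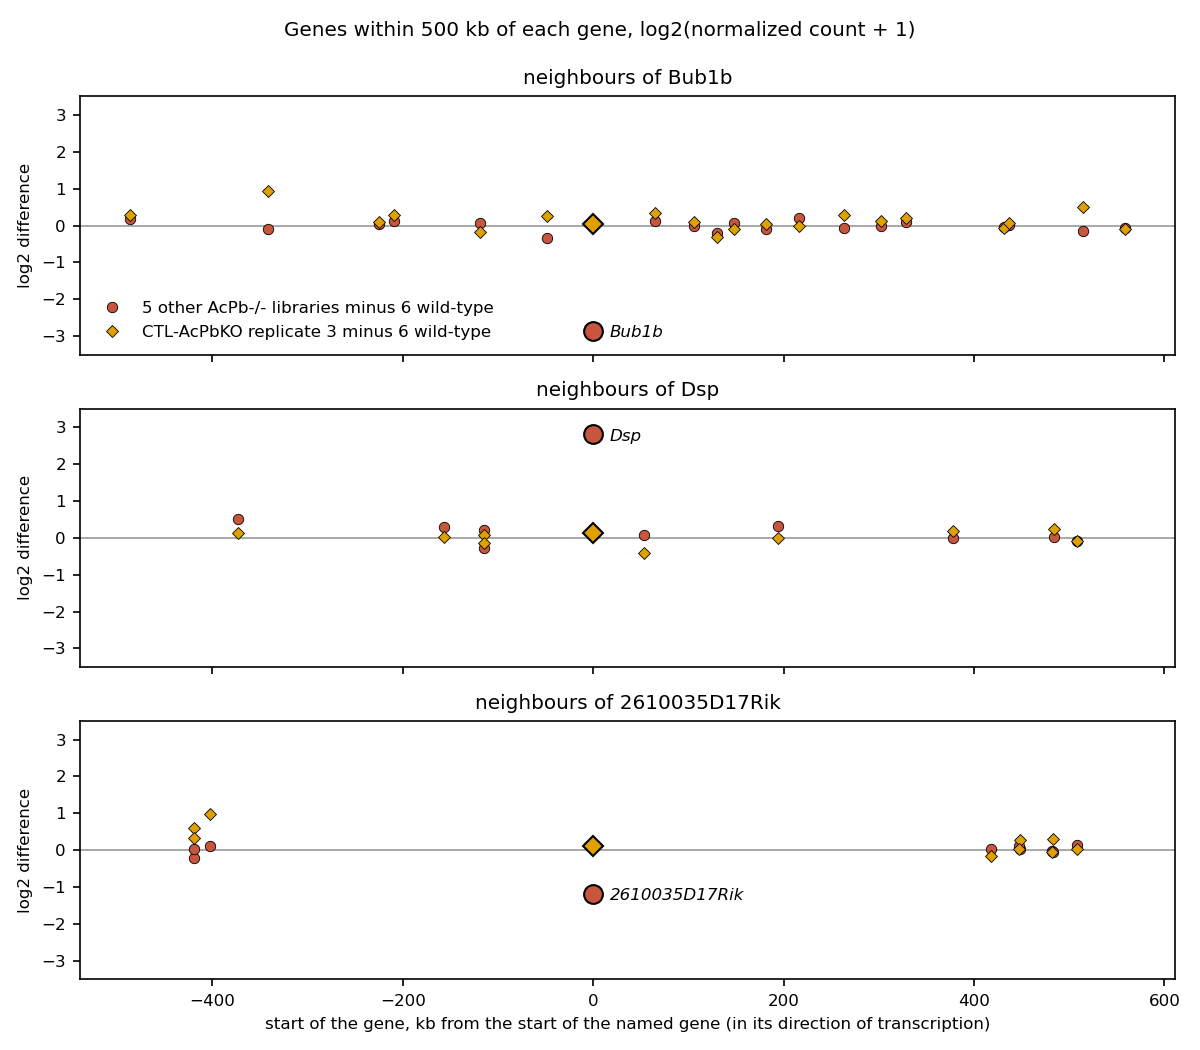
Log2 difference from the 6 wild-type libraries, on log2(normalized count + 1), of genes within 500 kb of Bub1b, Dsp and 2610035D17Rik against the distance of their start in kb, for the 5 AcPb-/- libraries (circles) and CTL-AcPbKO replicate 3 (diamonds). The larger symbols are the 3 genes, whose circles lie at -2.85, 2.80 and -1.18 and whose diamonds lie near 0.

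Chromosome 13, which carries Dsp, held more such genes than other chromosomes, a count made after the values were seen. Without replicate 3, the wild-type and AcPb-/- libraries did not overlap at 32 of 572 genes on chromosome 13 (5.59%), against 130 of 14896 on the other chromosomes (0.873%). At 29 of these 32 genes (90.6%) replicate 3 was nearer the wild-type mean than the mean of the 5 AcPb-/- libraries, against 43 of 130 (33.1%) elsewhere. It lay inside the wild-type range at 17 and inside the AcPb-/- range at 3. On chromosome 16, where Il1rap lies, 9 of 481 genes (1.87%) did not overlap. Replicate 3 was nearer wild-type at 1 of these 9 and inside the AcPb-/- range at 5. Leaving out each of the other AcPb-/- libraries instead gave 7 to 11 such genes on chromosome 13. Over all chromosomes it gave 122 to 147, against 162 without replicate 3. Replicate 3 then stays in the AcPb-/- set, so genes at which it lay in the wild-type range cannot be counted. The lower counts are thus no independent check. The 32 genes were not spread evenly, with 16 of 109 genes between 60 and 80 Mb and 0 of 87 between 80 and 100 Mb. Between 100 and 120 Mb, where Nnt lies, the only such gene of 81 was Ccl28. Replicate 3 lay in the AcPb-/- range at Ccl28, as it did at Nnt. Dsp, which was chosen for its difference, was among the largest differences on the chromosome, as the plot along chromosome 13 shows.

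**Figure D4:**
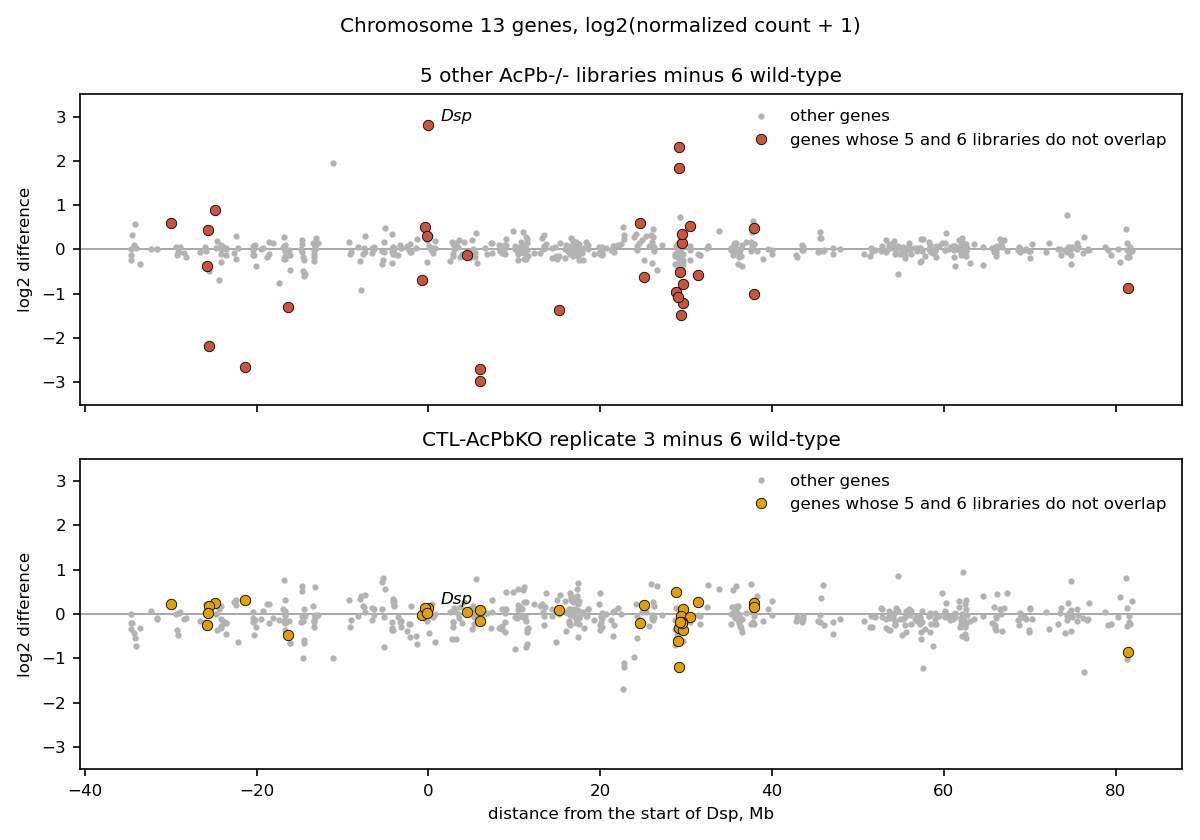
Log2 difference from the 6 wild-type libraries, on log2(normalized count + 1), of 572 genes on chromosome 13 against the distance from the start of Dsp in Mb, above for the 5 AcPb-/- libraries and below for CTL-AcPbKO replicate 3. The 32 coloured genes are those whose 5 AcPb-/- and 6 wild-type libraries do not overlap, and in the lower panel 29 of them are nearer wild-type.

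The genes most like the 3 were in good part on chromosome 13 as well. Over the 12 libraries, Pearson's r of log2(normalized count + 1) was 0.963 between Bub1b and 2610035D17Rik, -0.968 between Bub1b and Dsp and -0.897 between Dsp and 2610035D17Rik. Without replicate 3 it was 0.960, -0.967 and -0.893. These values describe 12 libraries that fall into 2 sets by level, and the libraries share depth and condition. Of the 5 genes nearest each gene, 13 in all after repeats, 9 lie on chromosome 13, which carries 3.70% of the compared genes that could be placed on a chromosome. Genes with provisional symbols, 2610035D17Rik included, were left out of these rankings. Among the rest, Ly86, a cofactor of a Toll-like receptor homologue, was nearest to Bub1b (r = 0.921), with Ubald1, Sugct and Kif19a next. Without replicate 3, r with Bub1b was 0.918 for Ly86 and 0.930 for Ubald1. The normalized counts of Ly86 were 261 to 332 in wild-type libraries, 150 to 205 in the 5 AcPb-/- libraries and 287 in replicate 3. Rfesd (0.884), Lgals8, Ssr1, Gpr137b and Zfp457 were nearest to Dsp, and Bub1b, Ly86 (0.934), Ptpn11, Srd5a1 and Sugct to 2610035D17Rik. Srd5a1, the steroid 5-alpha-reductase gene, had 359 to 463, 222 to 286 and 483 normalized counts in the same order.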

How the data were processed

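Somatosensory cortex RNA of 12 libraries was analysed. The labels list 4 more samples, which were not analysed here because no column names them. The authors prepared libraries with a stranded mRNA kit, aligned reads to mm10 with HISAT2 (version 2.2.1) and compared 2 groups at a time in DESeq2 (version 1.31.16), giving 5 tables of 24421 genes. Per the labels reads were counted with featureCounts, per the methods with HTSeq, and the settings are not given in the sources used here. The values deposited by the authors are a signal, reads divided by a size factor per library. The tables also hold the authors' means, log2 fold changes, standard errors, test statistics and p-values, which were not used. Undoing the factors gave whole reads for 100.0% of 732630 values (within 0.01), and 0 counts differed between tables. All replicates of a group differed by more than sampling noise. Nothing states that they came from separate mice beyond the labels, so p-values measure the spread between these samples.

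The 3 genes and the gene lists were chosen with earlier results of these data known. Per-library values were scaled by size factors over the 12 libraries (NumPy 2.4.6, pandas 2.3.3, Python 3.11.15). Tests used limma (version 3.58.1, R 4.3.3) with a variance trend on log2(normalized count + 1) within each table (4 residual degrees of freedom), leaving out genes without any read, and on all libraries for the interaction (8 residual degrees of freedom), with Benjamini-Hochberg adjustment over all genes tested. Alternatives were pseudocounts of 0.1 and 10, a mean of at least 10, other scalings, edgeR (version 4.0.16) and DESeq2 (version 1.42.0) on recovered reads, a joint analysis with and without an Xist term, omission of each library in turn, and a block for the replicate number. The count tests without CTL-AcPbKO replicate 3 were added after seeing the data. The tests of the SD effects and of the interaction were checked on simulated counts in which 200 genes were changed. The genotype comparisons were not checked in this way. Named genes were the 3 genes, Il1rap, the 5 genes most correlated with each, of each list those past the threshold (at most the 4 with the smallest p) or else the 2 most abundant, and neighbours within 500 kb that overlap, are nearest or passed the threshold. The lists are mitotic checkpoint, anaphase-promoting complex, desmosome, other plakins and intermediate filaments, and 14 sets of cell type markers. Symbols were matched to GENCODE M21 (23376 genes, 95.7%), and promoters are from RefSeq. Some genes are included in counts and sums and are not reported by themselves here. Figures used matplotlib 3.10.9.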

Additional observations from a re-analysis of the deposited data

How the results depend on the processing

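The genotype differences kept their direction at the 3 genes under every alternative run. With 1 library left out, the log2 difference after SD ranged from -3.19 to -2.80 for Bub1b, 2.98 to 3.61 for Dsp and -1.29 to -1.10 for 2610035D17Rik, and a pseudocount of 10 gave -2.63 for Bub1b and 2.65 for Dsp. In undisturbed mice it ranged from -2.69 to -1.21, 0.91 to 2.26 and -1.18 to -0.51, with the largest sizes without CTL-AcPbKO replicate 3. The number of genes past the threshold in undisturbed mice was 0 with a pseudocount of 10 and 0 to 168 with 1 library left out (168 without CTL-AcPbKO replicate 3, 2 without replicate 5, 0 without CTL-AcPbKO replicate 4 or any CTL-WT library). After SD it was 0 to 4 with 1 library left out (0 without SD-WT replicate 1, 1 without SD-AcPbKO replicate 3).

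The change with SD in wild-type mice turned sign under some alternatives. It was 0.00299 for 2610035D17Rik without CTL-WT replicate 1 (range -0.126 to 0.00299 with 1 library left out) and -0.0458 for Bub1b without SD-WT replicate 1 (range -0.0458 to 0.181). With a term for libraries with Xist, shared by both genotypes, it was -0.82 for Bub1b, 0.0652 for Dsp and -0.53 for 2610035D17Rik. In AcPb-/- mice that term gave -2.01 (adjusted p = 0.0189) for Bub1b and -0.95 (adjusted p = 0.00772) for 2610035D17Rik, and DESeq2 gave -1.79 (adjusted p = 0.02) for Bub1b, while the adjusted p over all alternatives ranged from 0.0189 to 0.839 for Bub1b and 0.00772 to 0.901 for 2610035D17Rik. Genes past the threshold with 1 library left out numbered 2699 to 6222 in wild-type (2699 without CTL-WT replicate 2, 2941 without SD-WT replicate 1, 2836 without SD-WT replicate 2) and 3393 to 5412 in AcPb-/- mice (3417 without CTL-AcPbKO replicate 4, 3393 without SD-AcPbKO replicate 2, 3575 without SD-AcPbKO replicate 4).

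The difference of the SD effects for 2610035D17Rik ranged from -0.664 to 0.00425 with 1 library left out. It turned sign without CTL-AcPbKO replicate 3, to 0.00425 with limma, 0.0222 with edgeR and 0.0199 with DESeq2. The number of genes past the threshold was 1 with DESeq2, 0 to 9 with limma and 1 library left out, and, without CTL-AcPbKO replicate 3, 20 with edgeR and 52 with DESeq2, both added after seeing the data.

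With the replicate number as a block, 0 genes passed in wild-type mice, in AcPb-/- mice, in the comparison after SD and in the interaction. The numbers were not treated as pairing the samples, since the groups compared share at most 2 of them, with correlations of deviations of 0.109 and -0.0866 for SD in wild-type mice, -0.147 and -0.0115 in AcPb-/- mice and 0.209 and 0.217 between genotypes after SD. In undisturbed mice the genotypes share only number 3, so no paired analysis was possible because a block of 1 number leaves no residual degrees of freedom. The depth limits Dsp most, at 8 to 19 reads per wild-type library.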
